A study of Homo sapiens with 4 samples.

Results

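Hexokinase 2 (HK2) and 9 further genes of glucose uptake and glycolysis were followed in melanoma cells exposed to C646, a small molecule that inhibits p300 and CBP, which acetylate histones. The 10 genes are SLC2A1, HK1, HK2, PFKP, PFKFB3, PFKFB4, PGK1, ENO2, LDHA and PDK1. They were found by their annotated symbol in the table of expression values, which gave 15 probe sets of 27631 and 10 genes of 17144 with a probe set annotated to them alone. The genes were selected on the log2 differences of C646 minus DMSO in these arrays, with HK2 chosen by its high value at 6 h, so those differences are given as a description and carry no test. The cells were WM35, an established line from a radial growth phase melanoma, and all groups used this line and the same medium. The 4 groups were C646 at 20 µM for 6 h, C646 at 20 µM for 24 h, DMSO at 0.2% for 6 h and DMSO at 0.2% for 24 h. Each group was 1 culture's RNA on 1 Affymetrix Human Exon 1.0 ST array, so no difference has a replicate check. The study asked which transcripts change when p300 can no longer acetylate.

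Glycolysis converts glucose to pyruvate in the cytosol. The transporter GLUT1, encoded by SLC2A1, brings glucose in, hexokinases trap it as glucose 6-phosphate, and phosphofructokinase commits it to breakdown under the control of fructose 2,6-bisphosphate. Pyruvate is then reduced to lactate by lactate dehydrogenase or enters mitochondria through pyruvate dehydrogenase, which the PDK kinases switch off. Many of these genes are known targets of the hypoxia-inducible factors, which recruit p300 and CBP as coactivators, and of MYC.

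The identity of the HK2 probe sets came first, because it decides which value is read. HK2 was covered by 2 probe sets. Probe set 2489545 is numbered between those of SEMA4F and POLE4, among probe sets of chromosome 2, where HK2 lies. Probe set 4013676 is numbered between those of ITM2A and BRWD3, among probe sets of chromosome X. The gene table lists the pseudogene HK2P1 between these X-linked genes. An array probe cannot tell near-identical copies apart, so the share of HK2 and HK2P1 transcripts in either probe set was not tested. The second one had the higher mean and stands for the gene under the selection rule. The same holds for LDHA, where 3 of 4 probe sets are numbered on chromosomes 9, 2 and 1, at the places of LDHAP4, LDHAP3 and LDHAP2. Among all placed single-symbol probe sets, 6.79% were numbered on a chromosome other than their gene's.

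The sequences around the start sites of HK2, and of PFKFB4 whose values followed HK2 most closely among the 10 genes, are shown because both were higher at 6 h. Each is a RefSeq window of 300 bases on GRCh38.p14, 250 before and 50 after an annotated start. Capitals mark ACGTG on either strand, the letters at the core of many sites of the hypoxia-inducible factors. The E-box CACGTG, bound by MYC and MITF, always contains it.

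HK2, first start, chr2:74833877-74834176, plus strand: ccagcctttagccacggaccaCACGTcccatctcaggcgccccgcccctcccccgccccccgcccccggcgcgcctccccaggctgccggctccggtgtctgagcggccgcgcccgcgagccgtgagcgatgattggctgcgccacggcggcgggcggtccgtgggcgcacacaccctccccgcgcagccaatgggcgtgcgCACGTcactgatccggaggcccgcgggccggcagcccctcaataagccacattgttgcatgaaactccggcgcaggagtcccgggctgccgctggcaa
HK2, second start, chr2:74834920-74835219, plus strand: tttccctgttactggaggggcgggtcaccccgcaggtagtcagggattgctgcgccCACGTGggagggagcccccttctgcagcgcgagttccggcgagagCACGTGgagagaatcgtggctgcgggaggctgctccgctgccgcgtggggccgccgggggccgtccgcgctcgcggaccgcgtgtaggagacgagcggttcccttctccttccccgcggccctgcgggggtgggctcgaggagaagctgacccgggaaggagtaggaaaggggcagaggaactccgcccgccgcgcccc
PFKFB4, chr3:48556754-48557053, minus strand: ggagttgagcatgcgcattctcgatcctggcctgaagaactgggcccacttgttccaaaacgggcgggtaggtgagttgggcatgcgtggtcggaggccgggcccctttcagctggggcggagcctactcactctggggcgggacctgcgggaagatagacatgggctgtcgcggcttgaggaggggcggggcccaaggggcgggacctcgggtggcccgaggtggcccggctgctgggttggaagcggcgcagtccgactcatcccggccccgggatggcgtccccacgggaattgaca

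Both HK2 windows held ACGTG, 2 times in the first, while the second held CACGTG 2 times. The PFKFB4 window held no ACGTG and 1 GCGTG, the other common form of the same core. Of the 10 genes, 7 had ACGTG in at least 1 window (8 of their 23 windows), and HK1, SLC2A1 and PFKFB4 had none. Of 35116 windows of all genes, 21.4% held ACGTG, 36.5% GCGTG and 7.26% CACGTG, counted on both strands. Of the 23 windows of the 10 genes, 11 held GCGTG and 3 CACGTG, the latter in HK2, PFKFB3 and LDHA. The shares over all genes are per window, and no share per gene was counted for all genes. These matches describe the letters only.

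The 4 arrays shared a common log2 scale as deposited, with medians of 4.39 to 4.41. Across all probe sets the DMSO arrays correlated at 0.996, the C646 array of 6 h with the DMSO array of 6 h at 0.994, and the C646 array of 24 h with the other arrays at 0.975 to 0.979. All 6 melanocyte markers with a probe set of their own (MITF, SOX10, PMEL, MLANA, TYRP1 and S100B) lay above the low-value limit of 3.96. These markers themselves were higher with C646 in 5 of 6 at 6 h and in 6 of 6 at 24 h, with medians of 0.45 and 0.57. Of all genes, 50.7% and 55.1% lay above 0, with medians of 0.0029 and 0.030. With only probe sets numbered on their gene's own chromosome, 5 markers were left. Of these, 4 were higher at 6 h and 5 at 24 h, with medians of 0.29 and 0.40. MITF, chosen after its values were seen, was at 0.79 and 0.90. S100B was the only marker called, at 1.49 at 24 h, where 0.971% of all genes were called higher. Its probe set was one that its neighbours by number did not place on its own chromosome. This can also mean that no chromosome held more than 50% of those neighbours. TYRP1 was the lowest at 6 h (-0.27) and PMEL at 24 h (0.078). The part of this shift in the values of the 10 genes was not tested. Of 4 keratinocyte markers with a probe set of their own 1 passed the low-value limit, KRT10. Of 6 fibroblast markers 2 passed it, COL1A1 and LUM. TYR and DCT, and the keratinocyte markers KRT5 and TP63, were not read. All 10 glycolysis genes passed the limit, with 14 of their 15 probe sets. The limit was set on the mean of the 4 arrays, and each gene's chosen probe set also lay above it on both DMSO arrays. RNA was taken from whole cultures, where a change in the mix of cell states and a change in RNA per cell cannot be told apart.

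HK2, the hexokinase isoform that many tumours add to HK1, was higher with C646 at 6 h on both of its probe sets and nearer to the vehicle at 24 h. On the chromosome X-numbered probe set HK2 read 6.57 with DMSO at 6 h, 6.60 with DMSO at 24 h, 7.95 with C646 at 6 h and 6.89 with C646 at 24 h. On the chromosome 2 probe set it read 6.00 and 5.80 with DMSO at 6 h and 24 h, and 6.95 and 6.29 with C646. On either one, both C646 arrays lay above both DMSO arrays, and the 6 h array was the highest of the 4. The log2 differences of C646 minus DMSO at 6 h were 1.38 (2.60-fold) and 0.95 (1.94-fold). At 24 h they were 0.29 (1.22-fold) and 0.50 (1.41-fold). The order of the probe sets thus turned between the times.

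The call of a 2-fold difference rests on which HK2 probe set is read. With the chosen one, HK2 was the only 1 of the 10 genes at least 2-fold different at 6 h, where 0.112% of 10707 genes were called higher and 0.0934% lower. It held rank 1 of those genes from the top. With only probe sets numbered on their gene's own chromosome, HK2 stood just below 2-fold, at rank 14 of 10461 genes, and none of the 10 was called. In these, 0.086% of genes were called higher and 0.0574% lower. At 24 h none of the 10 was 2-fold different with either choice, against 0.971% of genes higher and 2.88% lower with the first choice, and 0.918% and 2.82% with the second. HK2 was then at rank 1850 of 10707 with the chosen probe set and at rank 693 of 10461 with the chromosome 2 one.

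**Figure D1:**
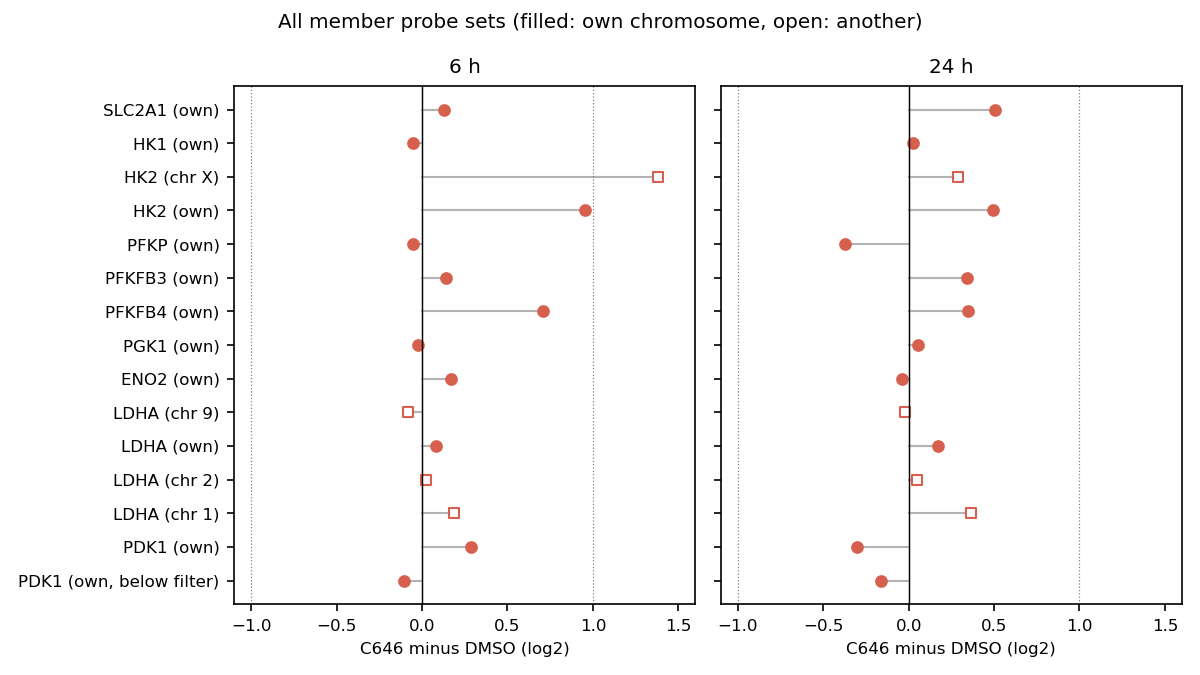
C646 minus DMSO (log2) at 6 h, left, and 24 h, right, for each of the 15 probe sets of the 10 genes. Filled circles are probe sets numbered on the gene's own chromosome and open squares those numbered on another one, as named at the left. Dotted lines mark 2-fold. Only the chromosome X-numbered HK2 probe set lies beyond them, at 1.38 in the 6 h panel.

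HK1, the widely expressed hexokinase, stayed near its vehicle values. It read 6.07 and 6.12 with DMSO at 6 h and 24 h, and 6.02 and 6.14 with C646. The differences were -0.055 and 0.028. The DMSO arrays themselves differed by 0.045, and the differences with C646 were of similar size. HK3 and HKDC1 lay below the low-value limit.

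SLC2A1, which encodes the basal glucose transporter, differed more at 24 h than at 6 h. It read 7.996 with DMSO and 8.12 with C646 at 6 h, and 7.70 with DMSO and 8.21 with C646 at 24 h. Both C646 values lay above both DMSO values. The difference was 0.13 at 6 h and 0.50 (1.42-fold) at 24 h, the largest of the 10 genes at 24 h. DMSO itself was lower by 0.29 at 24 h than at 6 h, and the C646 value was higher by 0.086. Most of the step from 0.13 to 0.50 thus came from the lower vehicle value. Against the mean of both DMSO arrays the differences were 0.27 at 6 h and 0.36 at 24 h.

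The phosphofructokinase step held genes that went apart. PFKFB4, a kinase-phosphatase that sets the level of the activator fructose 2,6-bisphosphate, was higher at 6 h. It read 6.15 and 5.82 with DMSO at 6 h and 24 h, and 6.86 and 6.16 with C646. The difference was 0.71 (1.63-fold) at 6 h, rank 54 of 10707 genes, and 0.35 at 24 h, which became 0.18 against the mean of both DMSO arrays. The C646 value of 24 h exceeded the DMSO value of 6 h by little, and the DMSO pair differed by -0.33.

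PFKFB3, the family member with the strongest kinase activity, was higher by less. It read 6.12 and 6.05 with DMSO, and 6.26 and 6.39 with C646, at 6 h and 24 h. Its differences were 0.14 and 0.34, and both C646 arrays lay above both DMSO arrays. PFKP, the platelet-type phosphofructokinase itself, went the other way. It read 6.73 and 6.78 with DMSO, and 6.68 and 6.41 with C646. Its differences were -0.052 and -0.37, the lowest of the 10 genes at 24 h.

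In the lower part of the pathway, PGK1 and ENO2 stayed close to their vehicle values. PGK1, which yields the first ATP of the pathway, read 8.26 and 8.20 with DMSO and 8.24 and 8.26 with C646. Its differences were -0.022 and 0.052, and both C646 values lay between the DMSO values. A pair of further probe sets lists PGK1 along with other genes and was not used. ENO2, the neuronal-type enolase, read 6.71 and 6.84 with DMSO and 6.88 and 6.80 with C646. Its differences were 0.17 and -0.040, where the DMSO arrays differed by 0.13.

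LDHA, the lactate dehydrogenase subunit that favours lactate formation, depended on the probe set. The chosen one, numbered on chromosome 9, read 9.62 and 9.72 with DMSO and 9.53 and 9.70 with C646, giving -0.082 and -0.022. The one on LDHA's own chromosome 11 read 8.85 and 8.77 with DMSO and 8.94 and 8.94 with C646, giving 0.083 and 0.17. Those numbered on chromosomes 2 and 1 gave 0.021 and 0.19 at 6 h, and 0.050 and 0.36 at 24 h. So 3 of the 4 probe sets lay above 0 at both times and the chosen one below.

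PDK1, a kinase that inactivates pyruvate dehydrogenase, lay above its vehicle at 6 h and below it at 24 h. It read 6.44 and 6.14 with DMSO at 6 h and 24 h, and 6.73 and 5.84 with C646. The C646 array of 6 h was the highest of the 4 and that of 24 h the lowest. The differences were 0.28 and -0.30. The DMSO pair moved by -0.30 between the times, about as much as either difference. Against the mean of both DMSO arrays the differences were 0.44 and -0.45. A second PDK1 probe set lay below the low-value limit, at 2.99 on average. With the mean of both probe sets PDK1 was at 0.090 and -0.23, and its DMSO pair differed by -0.13.

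**Figure D2:**
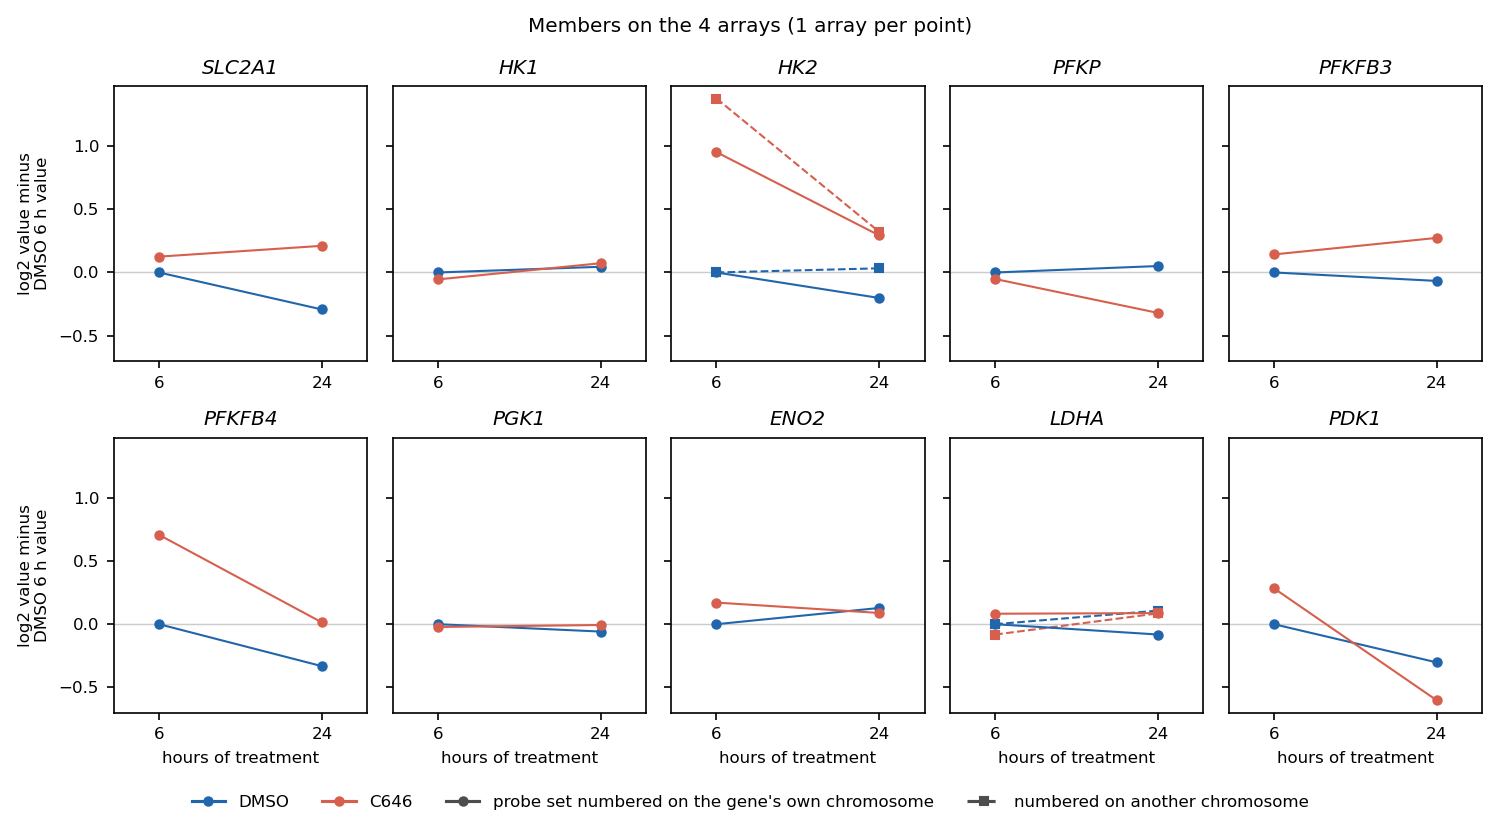
Log2 value on each array minus the value with DMSO at 6 h, against hours of treatment, for the 10 genes. Blue is DMSO, red is C646, and each point is 1 array. Solid lines with circles are probe sets on the gene's own chromosome, dashed lines with squares those numbered on another. For LDHA the chosen and the chromosome 11 probe sets are shown. The red points of HK2 and PFKFB4 are high at 6 h and come down by 24 h, while PDK1 crosses its vehicle.

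As a group the 10 genes were mixed. At 6 h 6 lay above 0 and 4 below, with a median of 0.13, against 50.7% of all genes above 0 and a median of 0.0029. At 24 h 6 again lay above 0, with a median of 0.040, against 55.1% and a median of 0.030. With own-chromosome probe sets 7 lay above 0 at each time, against 51.4% and 55.7% of genes, and the median at 24 h was 0.11. A smaller fold of 1.25, chosen after the values were seen, was reached by HK2 and PFKFB4 at 6 h, both higher, against 4.98% of genes higher and 4.77% lower. At 24 h it was reached by SLC2A1, PFKFB3 and PFKFB4 higher and PFKP lower, against 14.7% and 12.1%, and by HK2 as well on its chromosome 2 probe set, against 14.6% of own-chromosome genes higher. Against the mean of both DMSO arrays PFKFB3 and PFKFB4 no longer reached it at 24 h, at 0.31 and 0.18, while PDK1 did so as lower, at -0.45. With the same control PDK1 also reached it at 6 h, as higher, at 0.44. Between the DMSO arrays PFKFB4 alone reached it, lower at 24 h, against 2.78% of genes.

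The time course under C646 parted the genes. From 6 h to 24 h of C646, HK2 moved by -1.06 on the chosen probe set and -0.66 on the chromosome 2 one, PDK1 by -0.89 and PFKFB4 by -0.69. HK2 was the only member 2-fold lower between these arrays, where 2.76% of genes were, and with own-chromosome probe sets none was, where 2.7% were. These values share the C646 array of 6 h with the 6 h differences above. The other 7 genes moved by between -0.27 (PFKP) and 0.17 (LDHA). The effect at 24 h minus the effect at 6 h was -1.09 for HK2 (-0.46 on the chromosome 2 probe set), -0.59 for PDK1, -0.36 for PFKFB4, -0.32 for PFKP and -0.21 for ENO2, while SLC2A1 had 0.38 and PFKFB3 0.20. These differences of effects have no test.

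**Figure D3:**
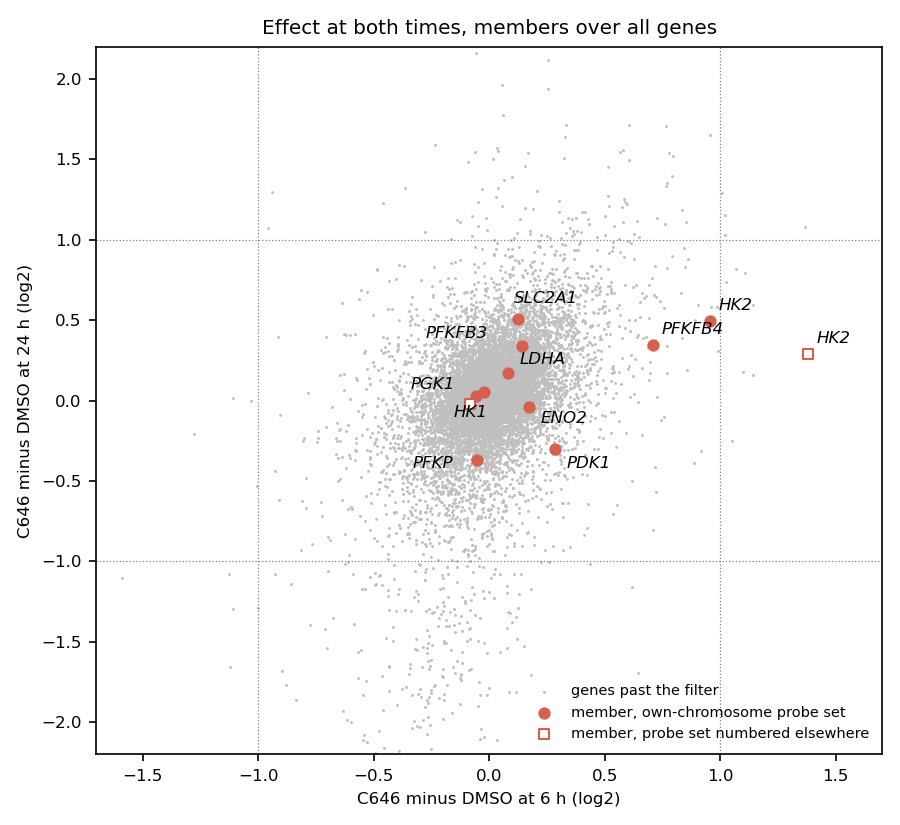
C646 minus DMSO at 24 h (log2, vertical) against 6 h (log2, horizontal) for the genes past the low-value limit in grey, with the 10 genes in red. Filled circles are own-chromosome probe sets, open squares the HK2 and LDHA probe sets numbered elsewhere. Dotted lines mark 2-fold, and 76 genes lie outside the axes. HK2 and PFKFB4 lie at the right edge of the cloud, and the other 8 genes lie within it.

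The genes whose 4 values were most like those of HK2 were sought by the root mean square distance of the values, each centred on the gene's own mean. Around the chosen HK2 probe set the closest of 10707 genes was ID3 at a distance of 0.13, followed by NREP (0.16), KCNJ10 (0.17), RXRG (0.20), NRG4 (0.20), LAPTM5 (0.23), FAHD2A (0.23) and PFKFB4 (0.24). The probe set of NREP is numbered on another chromosome than its gene. Around the chromosome 2 probe set KCNJ10 (0.038) and NRG4 (0.040) came first, followed by LAPTM5 (0.079), RXRG (0.090), CILK1 (0.10), LINC00847 (0.10), PFKFB4 (0.11) and PIGM (0.12). KCNJ10, RXRG, NRG4, LAPTM5 and PFKFB4 appeared around both. With DMSO, KCNJ10 read 3.79 at 6 h and 3.52 at 24 h, both below the low-value limit. With C646 it read 4.78 and 4.10, and it passed the limit on the mean of the 4 arrays. Its likeness to HK2 thus rests partly on vehicle values below the limit. With 4 arrays such a likeness is a description of these arrays. PFKFB4 was the only other member in either set.

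Other genes of glucose metabolism were read from fixed lists. Of 21 further glycolytic enzymes, 15 passed the low-value limit. Of these, 11 lay above 0 at each time, against 50.7% of all genes at 6 h and 55.1% at 24 h. The medians were 0.070 at 6 h and 0.084 at 24 h. None was 2-fold different, where 0.112% of all genes were called higher and 0.0934% lower at 6 h. At 24 h these shares were 0.971% and 2.88%. TIGAR, a p53 target that lowers fructose 2,6-bisphosphate, was the highest at 24 h, at 0.80, with its 4 probe sets between 0.66 and 1.35. PGAM1, phosphoglycerate mutase, was the lowest at -0.42, on a probe set numbered on another chromosome. Of the other lower-pathway enzymes, chosen after their values were seen, the pyruvate kinase PKM was at 0.052 and 0.55, GAPDH at 0.35 and 0.32 and the enolase ENO1 at 0.31 and 0.013. The 3 probe sets of PKM lay between 0.018 and 0.55 at 24 h. The second probe set of GAPDH was at 0.013 at 6 h and -0.024 at 24 h.

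Of 13 further hexose and lactate transporters, 6 passed the limit, with medians of -0.019 and 0.012. SLC2A13, a proton-coupled inositol transporter, was 2-fold lower at 24 h, at -1.04, while its second probe set was at -0.093. Of all genes, 2.88% were called lower at 24 h. BSG, the chaperone of lactate transporters, was the highest at 24 h, at 0.13. SLC2A10, chosen after its values were seen, was the highest at 6 h, at 0.56, and stood at -0.13 at 24 h. SLC2A3, SLC16A1 and SLC16A3 were not read.

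Around pyruvate dehydrogenase, 10 of 14 genes passed the limit, with medians of 0.048 and 0.11. PDP1, the phosphatase that opposes PDK1, had the highest 24 h difference of this list. It read 9.60 and 9.39 with DMSO and 9.80 and 10.2 with C646. Its differences were 0.20 and 0.81, where PDK1 had 0.28 and -0.30. MPC2, a subunit of the mitochondrial pyruvate carrier, was the lowest at 24 h, at -0.14. The highest at 6 h was PC, chosen after its values were seen, at 0.60, with 0.20 at 24 h.

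The citrate cycle list had 17 of 21 genes past the limit and medians of 0.042 and 0.11. IDH3G, a subunit of the NAD-dependent isocitrate dehydrogenase, was the highest at 24 h (0.49), and the mitochondrial NADP-dependent IDH2 the lowest (-0.62). The pentose phosphate list had 6 of 9 genes, with medians of 0.19 and 0.15. Of these, 5 lay above 0 at 6 h and 4 at 24 h, against 50.7% and 55.1% of all genes. RPE was the highest at 24 h (0.23) and PGD the lowest (-0.19). H6PD, chosen after its values were seen, was the highest at 6 h, at 0.46, with 0.12 at 24 h. Its second probe set was at 0.11 and 0.23. Gluconeogenesis and glycogen genes (10 of 16) had medians of 0.027 and 0.076. At 24 h the glycogen phosphorylase PYGL was at 0.45 and PCK2 at -0.20. None of the genes past the limit in these 3 lists was 2-fold different. Of all genes, 0.112% were called higher and 0.0934% lower at 6 h, and 0.971% and 2.88% at 24 h.

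Regulators linked to these genes were read as well. Of the HIF pathway, 8 of 11 genes passed the limit, with medians of 0.053 at 6 h and 0.26 at 24 h. At 24 h 7 of the 8 lay above 0, against 55.1% of all genes, whose median was 0.030. CITED2, which competes with HIF-1α for p300 and CBP, read 5.26 and 5.59 with DMSO and 5.84 and 7.15 with C646. Its differences were 0.58 and 1.56. CITED2 was the only gene of this list called at 24 h, where 0.971% of all genes were called higher. ARNT2 was the lowest at 24 h, at -0.23. HIF1A, chosen after its values were seen, was at 0.048 and 0.61.

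Other hypoxia-induced genes (15 of 20 past the limit) had medians of 0.061 and 0.13, and none was 2-fold different. Of all genes, 0.112% were called higher and 0.0934% lower at 6 h, and 0.971% and 2.88% at 24 h. NDRG1 was the highest at 24 h (0.77) and ERO1A the lowest (-0.36). At 6 h, when HK2 and PFKFB4 stood furthest from the vehicle, the chosen probe sets of this list ranged from -0.42 to 0.33. AK4, a mitochondrial adenylate kinase chosen after its values were seen, was at -0.018 on its chosen probe set, which is numbered on another chromosome, and at 0.48 on its own-chromosome one.

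Of 12 genes of glucose-sensing transcription, all passed the limit, with medians of 0.042 and 0.20. PPARGC1A, a coactivator of mitochondrial genes, was called at both times on its brighter probe set, at 1.37 and 1.08. Its second probe set was at 0.29 and -0.00022. Of all genes, 0.112% were called higher at 6 h and 0.971% at 24 h. MLXIPL was the lowest at 24 h (-0.67) on a probe set numbered on another chromosome, and its 4 probe sets ranged from -0.67 to -0.11. No MLXIPL probe set placed on its own chromosome passed the limit, so whether these values read MLXIPL was not tested. TXNIP and ARRDC4, arrestin-like genes that respond to glucose 6-phosphate and limit glucose uptake, were chosen after their values were seen. TXNIP read 7.76 and 8.04 with DMSO and 7.40 and 8.42 with C646, giving -0.35 and 0.38. ARRDC4 was at -0.93 and -0.44 on its brighter probe set and at -0.61 and -0.29 on its own-chromosome one. At 6 h both thus lay below the vehicle while HK2 lay above it. Then 7 of the 12 genes of this list lay above 0, against 50.7% of all genes. A link of these genes to HK2 was not tested.

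**Figure D4:**
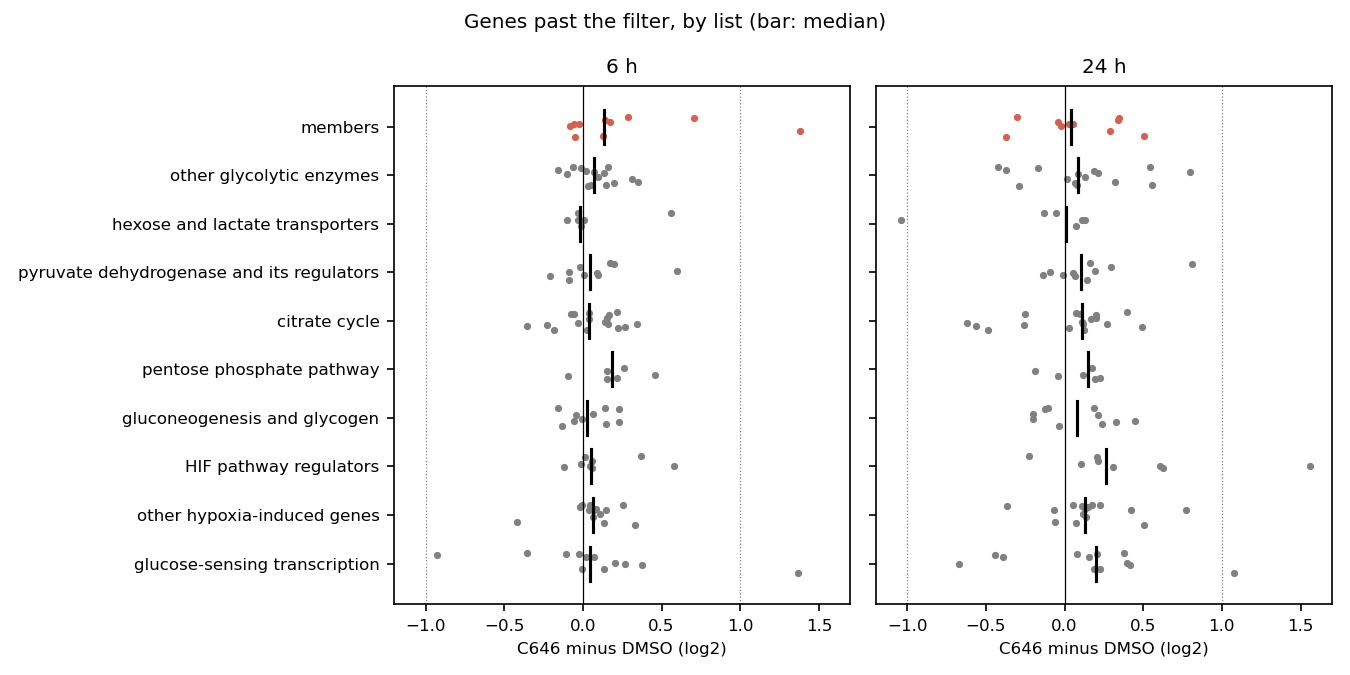
C646 minus DMSO (log2) at 6 h, left, and 24 h, right, for the genes past the low-value limit, by list, with the 10 glycolysis genes in red. Each point is a gene, bars are medians, dotted lines mark 2-fold, and vertical scatter within a list has no meaning. The medians lie between -0.019 and 0.19 at 6 h, and HK2 and PPARGC1A are the only points beyond 2-fold there.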

How the data were processed

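RNA of WM35 cells was measured on 4 Affymetrix Human Exon 1.0 ST arrays, 1 for each combination of C646 or DMSO with 6 h or 24 h. The authors' deposited table holds log2 expression values per gene-level probe set, from 2.48 to 13.6. Their range shows the log2 scale. Summarisation and normalisation steps were not given in the sources used here. Per the submitters' processing notes, the build was hg19. No coordinates of that build were used.

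Gene symbols came from the platform annotation, with 20429 probe sets of 1 symbol, 4232 of several and 2970 of none. Through Entrez identifiers 20362 of the single symbols were matched to a gene table of GRCh38.p14. All 10 genes matched promoter windows. The probe set with the highest mean stood for a gene. Probe sets whose mean reached the 40th percentile, 3.96, were kept (16579 probe sets, 10707 genes). A probe set was placed on the chromosome that more than 50% of its 20 nearest single-symbol neighbours by number shared, and own-chromosome values cover 10461 genes.

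Differences are log2 differences of 1 array minus 1 array, called from 2-fold. No p-value was computed. The number of arrays limits the precision. The text names the 10 genes with every HK2 probe set, and of each other list every called gene with the highest and the lowest at 24 h. It also names the 8 genes closest to HK2, without small RNA genes or LOC symbols. Genes outside this rule are said to be so. The members and lists were chosen with earlier results of these data known. Alternatives were no filter, the 60th percentile, quantile normalization, the mean of a gene's probe sets, own-chromosome probe sets and the mean of both DMSO arrays as control. Calculations used Python 3.11.15, numpy 2.4.6 and pandas 2.3.3 and were tested on simulated data.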

Additional observations from a re-analysis of the deposited data

Results flagged for a closer look

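In 4 of the 10 genes the C646 difference had opposite signs at 6 h and 24 h, and in none was this difference between the times tested. PDK1 was at 0.28 at 6 h and -0.30 at 24 h. ENO2 was at 0.17 and -0.040, HK1 at -0.055 and 0.028, and PGK1 at -0.022 and 0.052. In ENO2, HK1 and PGK1 at least 1 of the 2 differences was smaller than the difference between the DMSO arrays, which was 0.13, 0.045 and -0.059. In PDK1 both differences, 0.285 and -0.300, were also smaller in size than that between the DMSO arrays, which was -0.303. With the mean of its probe sets PDK1 was at 0.090 and -0.23.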

How the results depend on the processing

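No paired analysis was possible because each group was 1 array, and no replicate could be left out. A value was taken to have moved when it changed by over 0.17, the SD of the difference between the DMSO arrays over probe sets past the filter, which stands in for a replicate spread. HK2 at 6 h moved from 1.38 to 1.17 with the mean of its probe sets and to 0.95 with its own-chromosome probe set, which ended the 2-fold call, and at 24 h from 0.29 to 0.50 with the latter. PDK1 moved from 0.28 to 0.090 at 6 h, and from -0.30 to -0.13 between the DMSO arrays, with the mean of its probe sets. Of 21 probe sets 2-fold higher at 6 h, 12 were left under a 60th percentile filter and 10 with own-chromosome probe sets, an alternative chosen after seeing the data that tests fewer probe sets. It left 10 of 19 lower at 6 h and 115 of 189 higher at 24 h. Of 100 member values under these alternatives, 94 stayed within that SD and 10 changed sign, all from values under 0.11 in size. At 6 h LDHA turned to 0.052 with the mean of its probe sets and to 0.083 with its own-chromosome one, and at 24 h to 0.14 and 0.17. PGK1 at 6 h turned to 0.014 with quantile normalization, and ENO2 at 24 h to 0.025 with both DMSO arrays as control. Of 168 list medians, 165 stayed within it. Detection calls per probe set were not used, so signal over background limits only through the low-value filter.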
